A study of Mus musculus with 2 samples.

Results

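Replication-dependent histone genes were taken as all genes whose symbol begins with Hist1h, Hist2h, Hist3h or Hist4h and whose identifier is in the gene tables, which gave 70 of 55536 genes. The annotation classes 67 of them as protein-coding and 3 as pseudogenes (Hist1h2aj, Hist1h2al and Hist3h2bb-ps). The symbol rule also takes in genes known for expression in the testis, such as Hist1h1t, Hist1h2aa and Hist1h2ba. The RNA came from the nuclei of macrophages grown from bone marrow of C57BL/6J mice, a fraction the labels also call nucleoplasmic, and was cleared of ribosomal RNA before sequencing. Both libraries belonged to 1 group. The cells had been given Lipid A, the part of lipopolysaccharide that TLR4 senses, at 100 ng/ml for 12 h, kept without it for 12 h, and given it again at 100 ng/ml for 40 min. Library 1 (replicate 1) was made from 1000 ng of RNA and library 2 (replicate 2) from 500 ng, so RNA input and replicate number cannot be told apart. The labels name the same donor entry for both libraries and give no age or sex. No unexposed cells were analysed here, so every value describes restimulated cells and none is a response to Lipid A. With 1 library on each side of the comparison, no difference between the libraries has a replicate check and no p-value was computed.

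Replication-dependent histones package new DNA and are made mainly in S phase. H2A, H2B, H3 and H4 form the nucleosome core, and H1 binds the linker DNA between nucleosomes. Their mRNAs are the known exception among animal mRNAs in ending in a short stem-loop instead of a poly(A) tail. The stem-loop is bound by SLBP, and NPAT drives transcription of the clustered genes. Cultured bone-marrow macrophages divide in response to CSF1, and lipopolysaccharide is known to halt that division.

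The 3′ ends are shown first because they set these genes apart from other mRNAs and from each other. In the GENCODE M21 transcripts, a 16-nt stem-loop was searched after the stop codon on the transcript strand: a stem of 6 perfect pairs opening with GG and a loop of 4 bases opening with TT. It was found in 44 genes, in 6 distinct forms, beginning 21 to 58 nt after the stop codon (median 31 nt). Within 100 nt after the stop it was present in 44 of 52 members with at least 16 nt annotated there (84.6%), against 8 of 21017 other protein-coding genes (0.0381%), among them the histone genes H2afx and H2bfm. In each line below, capitals mark the stem-loop and lower case its flanks.

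Hist3h2a: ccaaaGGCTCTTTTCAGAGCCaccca

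Hist1h2bb: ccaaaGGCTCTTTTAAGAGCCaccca

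Hist2h2ac: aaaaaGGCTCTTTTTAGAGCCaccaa

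Hist1h4m: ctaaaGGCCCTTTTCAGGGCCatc

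Hist1h4i: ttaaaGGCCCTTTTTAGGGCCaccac

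Hist1h4b: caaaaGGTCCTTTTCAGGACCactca

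The form of Hist3h2a was carried by 26 genes, namely 3 for H1, 10 for H2A, 8 for H2B and 5 for H3. The form of Hist1h2bb was carried by 6 genes, and that of Hist2h2ac by that gene alone. The stem-loops of the 11 H4 genes that had one were of the other 3 forms, in 7, 2 and 2 genes, and no member of another type carried those forms. Across clusters the forms were shared: Hist2h4 has that of Hist1h4i, and Hist4h4 that of Hist1h4m.

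The coding sequences are shown for H4 because they show how little sequence tells these genes apart. All 13 H4 genes encode 1 identical protein through 12 distinct coding sequences of 312 nt. Bases 1 to 90 of the coding sequence follow for 5 of them, with capitals at bases that differ from Hist1h4m.

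Hist1h4m: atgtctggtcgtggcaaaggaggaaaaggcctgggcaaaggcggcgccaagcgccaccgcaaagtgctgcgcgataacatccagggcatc

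Hist1h4n: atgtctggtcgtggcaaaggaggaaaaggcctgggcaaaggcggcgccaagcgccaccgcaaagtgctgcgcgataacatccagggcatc

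Hist1h4i: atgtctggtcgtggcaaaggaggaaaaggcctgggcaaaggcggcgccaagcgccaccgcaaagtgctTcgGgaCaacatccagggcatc

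Hist1h4k: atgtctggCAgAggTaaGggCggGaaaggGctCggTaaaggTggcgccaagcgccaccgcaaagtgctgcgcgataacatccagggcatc

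Hist1h4d: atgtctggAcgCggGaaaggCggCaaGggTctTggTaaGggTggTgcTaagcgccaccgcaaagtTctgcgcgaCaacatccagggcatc

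Hist1h4n is identical to Hist1h4m over the whole coding sequence. Over the same length Hist1h4i differs from Hist1h4m at 10 bases, Hist1h4k at 15 and Hist1h4d at 20, all without a change of protein. The other types share sequence in the same way: the 12 H3 genes encode 2 proteins, the 18 coding H2A genes 9 proteins and the 18 coding H2B genes 11 proteins. The 6 H1 genes encode 6 different proteins. Besides Hist1h4m and Hist1h4n, identical coding sequences were found for Hist1h2ao and Hist1h2ap, Hist2h2aa1 and Hist2h2aa2, Hist1h2bq and Hist1h2br, and Hist2h3c1 and Hist2h3c2.

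Histone RNA was a small part of both libraries, and by counts a smaller part of library 2. The members held 3939 of 19797829 expected counts in library 1, 0.0199% (95% Wilson interval 0.0193 to 0.0205%), and 1689 of 17213606 in library 2, 0.00981% (0.00936 to 0.0103%). As CPM, counts scaled to the library total, this was 199 and 98.1, a ratio of 0.493, and with the kallisto estimates 174 and 95.8, a ratio of 0.549. The length-scaled sums of the 2 programs differed: RSEM gave 257 and 116 TPM, a ratio of 0.452, but kallisto gave 70.1 and 69.6 TPM, a ratio of 0.994. The kallisto TPM of detected protein-coding genes was itself shifted upward in library 2 by a median log2 ratio of 0.59, so the lower histone sum appears on that scale only relative to other genes. These intervals, and those of counts below, cover counting error only, because the reads carry no molecular identifiers and can repeat a molecule. In a bulk library, fewer cells making histone RNA and less of it per cell cannot be told apart. A few genes carried most of the counts, with 5 genes holding 51.8% in library 1 and 55.7% in library 2.

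Detection was set at a minimum of 10 expected counts in each of the 2 libraries. That held for 25 of the 70 members, beside 50% of all protein-coding genes. Taken singly, library 1 had 39 members at 10 or more counts and library 2 had 26, beside 11471 and 11181 of 21951 protein-coding genes. The detected members were 4 of 6 for H1, 5 of 20 for H2A, 5 of 19 for H2B, 2 of 12 for H3 and 9 of 13 for H4. Hist1h2aa, Hist1h2aj, Hist1h2al, Hist1h2ao and Hist1h2ba were listed at 0 in both libraries by RSEM, where 3 counts, the floor used for a count of 0, are 0.152 CPM in library 1 and 0.174 CPM in library 2. That floor covers counting error and not read sharing: Hist1h2ao, with 92.7% of its 100-base words shared, had a posterior mean of 2.94 counts (posterior SD 2.69) in library 2.

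**Figure D1:**
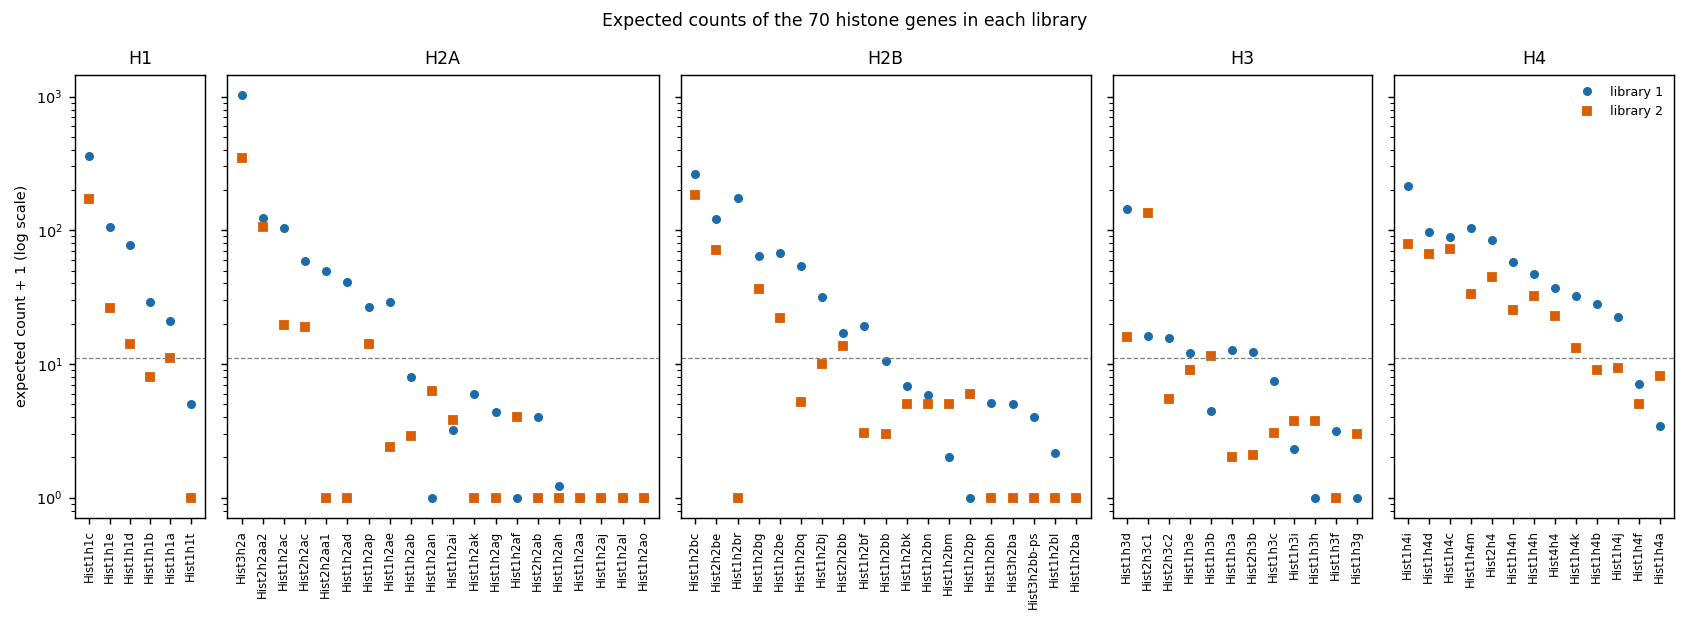
Expected count plus 1 (log scale) of each of the 70 genes in library 1 (circles) and library 2 (squares), by histone type, ordered by mean count; the dashed line marks the detection minimum of 10. Hist3h2a is the highest in both libraries, and most genes lie below their library 1 value in library 2.

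H4 had the highest level per unit of transcript length. Its genes summed to 101 TPM (the authors' unit, scaled to transcript length and library) in library 1 and 45.6 TPM in library 2. H2A followed at 75.4 and 31.6 TPM, H2B at 48.0 and 23.1, H1 at 20.1 and 7.75, and H3 at 13.4 and 8.41. By CPM the order differed, with H2A at 74.8 and 30.1, ahead of H2B at 42.2 and 20.7 and H4 at 40.9 and 23.6. The H4 genes have the shortest coding sequences of the 5 types, and annotated transcript ends differ widely, so the 2 scales weight the types differently. H4 remained above H1 and H3 on both scales in both libraries.

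Among H1 genes, Hist1h1c stood highest at 12.4 TPM in library 1 and 5.58 in library 2, from 361 counts (95% exact Poisson interval 325 to 400) and 169 counts (144 to 196). Hist1h1e followed at 2.81 and 0.65 TPM, and Hist1h1b at 2.42 and 0.59 TPM, the latter with only 7 counts in library 2. All 3 were lower in library 2. Hist1h1t, the linker histone gene of male germ cells, had 4 counts and 0. Hist1h1d is annotated with a transcript of 7425 nt, far longer than the 666 nt of its coding sequence. The programs differed on it: RSEM gave 77.1 counts in library 1 and 13 in library 2, while kallisto gave 175 and 162.

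H2A RNA came largely from genes outside the Hist1 cluster. Hist2h2aa2 was at 17.8 TPM in library 1 and 15.1 in library 2, and Hist3h2a at 24.8 and 8.02 TPM. Hist3h2a alone held 1033 counts (971 to 1098) in library 1 and 349 (313 to 388) in library 2, which was 26.2% and 20.7% of all member counts. It lies inside the gene Trim17 on the same strand, and 29.8% of its 100-base words are also in Trim17 transcripts, which held 78.0 and 44 counts. Hist2h2ac was at 8.56 and 2.66 TPM. The 15 Hist1 H2A genes together reached 17.7 and 5.82 TPM, so in library 1 Hist3h2a alone stood above their sum. Hist1h2ac, with 102 and 18.6 counts, and Hist1h2ap, with 25.5 and 13.1, were the detected ones among them.

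For H2B, Hist1h2bc led with 12.8 TPM in library 1 and 8.67 in library 2, from 261 counts (230 to 295) and 183 counts (157 to 212). Hist1h2bg was at 7.11 and 3.92 TPM and Hist2h2bb at 4.21 and 3.45 TPM. Hist2h2be, with no 100-base word shared with another gene, had 121 and 70 counts. The near-identical pair Hist1h2bq and Hist1h2br showed the widest gap among the H2B genes: Hist1h2br had 172 counts in library 1 and 0 in library 2, and Hist1h2bq 52.9 and 4.20. Most of the library 1 counts were assigned to long spliced transcripts that the annotation classes as targets of nonsense-mediated decay, 164 on Hist1h2br and 34.3 on Hist1h2bq. Kallisto gave the same direction, with 140 and 0 counts on Hist1h2br and 176 and 21.5 on Hist1h2bq. The short coding transcripts of 381 nt of both genes held 0 counts in both libraries.

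H3 was the lowest type by CPM in both libraries and the only one whose summed CPM barely differed, at 11.1 in library 1 and 10.7 in library 2. That sum joined opposite differences. The 9 Hist1 H3 genes had 9.04 and 2.56 CPM, and the 3 Hist2 H3 genes 2.07 and 8.10 CPM. Hist1h3d, the highest H3 gene, was at 6.39 TPM in library 1 and 0.64 in library 2, from 143 counts (121 to 168) and 14.9 counts (8.40 to 24.7). Hist2h3c1 went the other way, at 0.43 and 3.69 TPM, from 15.1 counts (8.40 to 24.7) and 134 counts (112 to 159). Hist2h3c1 lies wholly inside the noncoding transcript Gm20634 on the same strand, and every 100-base word of it is shared. Gm20634 had 247 counts in library 1 and 87.2 in library 2, so the pair summed to 262 and 221 counts, or 13.2 and 12.8 CPM. Kallisto placed 0 and 151 counts on Hist2h3c1 and 273 and 282 on the pair. The higher value of Hist2h3c1 in library 2 was thus not present in the sum of the genes that share its sequence. Hist2h3b, the third by mean level, was at 1.85 and 0.18 TPM and lies within the antisense gene Gm20628.

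H4 was the type with the largest share of detected genes. Hist1h4m was at 24.0 TPM in library 1 and 7.82 in library 2, Hist1h4i at 19.2 and 6.77, and Hist1h4k at 12.8 and 5.56. Since Hist1h4m and Hist1h4n share their coding sequence, their sum is the firmer value, at 159 counts in library 1 and 56.6 in library 2. Hist1h4i, with 15.1% of its 100-base words shared, had 215 counts (187 to 246) and 77.5 counts (60.8 to 96.2). Not all H4 genes differed so between the libraries: Hist1h4c had 87.5 and 71.3 counts, or 4.42 and 4.14 CPM, and Hist1h4d 96 and 65 counts, or 4.85 and 3.78 CPM. Hist2h4, at 83 and 44 counts, and Hist4h4, at 36 and 22, are the H4 genes outside the Hist1 cluster.

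The genes fall into 4 clusters on mm10. Hist1 holds 56 members on chromosome 13, of which 24 lie between 21715763 and 22043676 (5 detected), 31 between 23531050 and 23934851 (12 detected), and the pseudogene Hist1h2al stands apart at 51202727. Hist2 has 10 members on chromosome 3 (96219865 to 96270132, 6 detected), Hist3 has 3 on chromosome 11 (58948920 to 58956830, 1 detected), and Hist4h4 is alone on chromosome 6 (136801553 to 136804415). Summed CPM in library 1 and library 2 was 120 and 54.0 for Hist1, 25.0 and 22.6 for Hist2, 52.5 and 20.3 for Hist3, and 1.82 and 1.28 for Hist4. The nearly equal CPM of Hist2 includes Hist2h3c1. The first Hist1 block had a library 2 over library 1 ratio of 0.331 and the second of 0.508, and the first block holds Hist1h2bq and Hist1h2br.

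**Figure D2:**
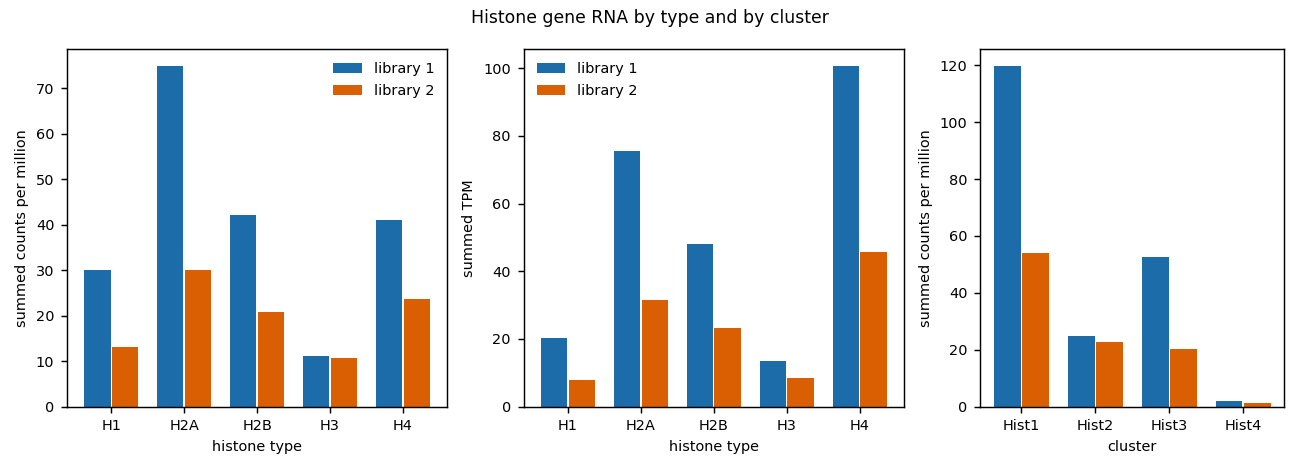
Summed CPM by histone type (left) and by cluster (right), and summed TPM by type (middle), as 1 bar per library with no error bar because each is a single library. H4 leads by TPM and H2A by CPM, and H3 and Hist2 are nearly equal between the libraries by CPM, while H3 is at 13.4 and 8.41 by TPM.

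The annotated 3′ ends divided the RNA unevenly. In 22 genes the annotated transcript that holds the stem-loop ends within 100 nt after it, and these held 631 member counts in library 1 and 277 in library 2 (16.4%). One of them, Hist1h2bp, also has a longer transcript without the stem-loop, which held all 5 of its library 2 counts. In another 22 genes the transcript runs more than 100 nt past the stem-loop, and these held 65.3% and 64.0% of the counts. They include Hist3h2a, whose transcript runs 1643 nt past the stem-loop, Hist1h1c (840 nt) and Hist1h4i (330 nt). Hist1h2be, also in this class, has a further transcript with no annotated coding sequence, which was not searched. That transcript held 28 of its 66.5 counts in library 1 and 11 of 21.1 in library 2. By TPM, which divides by length, the shares were 42.4% and 40.7% for the first class and 38.4% and 36.0% for the second. A further 8 genes had no stem-loop of this form in the annotated sequence, among them Hist1h2bc and Hist2h2be, and held 16.3% and 16.4% of counts. That sequence can be short: Hist2h3b has 37 nt after the stop codon and Hist1h1a 48 nt. For Hist1h2bq and Hist1h2br only spliced transcripts could be searched, because their 381-nt transcripts end at the stop. The only annotated transcript of Hist1h2bc has 2 exons, so that gene too was searched only in spliced form. In 15 genes the annotation ended fewer than 16 nt after the stop codon, so no stem-loop could be searched. The files give counts per transcript and not per base, so whether reads lay past the stem-loop was not tested.

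Read sharing touched most members. At a word length of 100 bases, the median member shared 35.7% of its words with another gene, 29 members shared over 50% and 5 shared all (Hist2h2aa1, Hist2h2aa2, Hist2h2bb, Hist2h3b and Hist2h3c1). At 31 bases the median was 61.0%, and at 200 bases, close to the mean fragment lengths of 205 and 222 nt, it was 14.9%. RSEM reports the posterior SD of each count, which is 0 when every read could be placed in only 1 way. Of the members with 10 or more counts, that was so for 8 of 39 in library 1 (20.5%) and 9 of 26 in library 2 (34.6%), against 69.4% and 72.9% of protein-coding genes at that minimum. The posterior SD was over 10% of the count in 13 members in library 1 (33.3%) and 7 in library 2 (26.9%), against 1.98% and 1.97%. It was largest in library 1 for Hist2h3c1 (85.1% of its count), Hist1h2bq (36.8%), Hist2h2aa1 (32.7%) and Hist2h3b (28.5%).

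**Figure D3:**
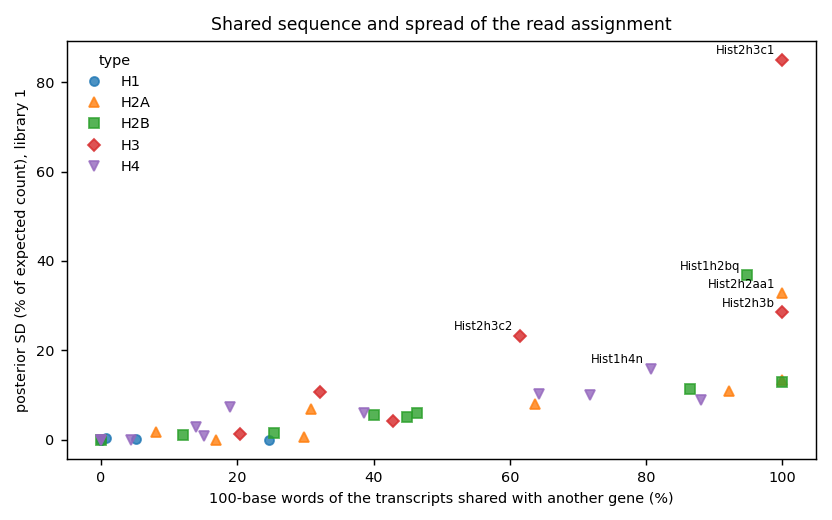
Posterior SD of the count as a percent of the expected count in library 1, against the percent of 100-base words shared with another gene, for members with 10 or more counts, by type. H1 genes lie at the bottom left, and Hist2h3c1, Hist1h2bq, Hist2h2aa1 and Hist2h3b lie highest.

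Some copies could be read only together. Hist2h2aa1 and Hist2h2aa2 are identical in coding sequence, and RSEM gave Hist2h2aa1 48.9 counts in library 1 and 0 in library 2 but Hist2h2aa2 124 and 105, so the pair had 172 and 105. Both are also covered by the antisense genes Gm20633 or Gm20632, with 96.3 and 85.9 counts and 117 and 69.6 counts. Gm20634 overlaps 529 nt of Hist2h2aa1 on the same strand and had 247 and 87.2 counts. It shares 88.3% of the 100-base words of Hist2h2aa1 and 100% of those of Hist2h2aa2. The sum of the pair thus leaves out a gene that shares its sequence even where strand is used. Hist2h2bb lies within Gm20628, which had 47.6 and 38.8 counts against its own 16.1 and 12.6. Hist1h2bk, Hist1h2bq and Hist1h2br summed to 231 and 8.21 counts, so the gap was also present in the sum of these 3 near copies. The sources used here do not say whether counting used the strand, and without strand the reads of an antisense pair cannot be told apart. The 41 members with 50% or less of their words shared held 80.5% of member counts in library 1 and 77.0% in library 2, with a CPM ratio of 0.472. The other 29 members had a ratio of 0.580. Those 29 include Hist2h3c1, at 15.1 and 134 counts, whose higher value in library 2 was not present in its sum with Gm20634. The 2 ratios therefore do not rank the groups.

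By CPM, 54 of the 70 members were lower in library 2, 11 were higher and 5 were 0 in both. Many of these rest on few counts, with 10 members at 0 in library 1 and 18 in library 2. The share over all genes was not computed for this uncentred count. By the centred CPM ratio, 23 of the 25 detected members were lower in library 2 and 2 higher, beside 51.7% lower of all detected genes. For the 25 detected members, log2((TPM + 1) in library 2 / (TPM + 1) in library 1), centred on detected protein-coding genes, had a median of -0.44, with 21 lower and 4 higher. Over all 13757 detected genes the median was 0.00 and 49.7% were lower. Without centring 24 members were lower and 1 higher, beside 77.7% lower of all detected genes. Hist2h2aa2, Hist2h2bb and Hist4h4 were higher only after centring, and their TPM was lower in library 2. Past 2-fold lower on the centred scale were 5 members (Hist1h3d at -1.90, Hist3h2a at -1.24, Hist1h4m at -1.23, Hist2h2ac at -1.11 and Hist1h4i at -1.10), beside 1.48% of detected genes. Past 2-fold higher was 1 member, Hist2h3c1 at 1.99, beside 0.894%. The pseudocount understates differences of genes at low TPM. As a centred log2 CPM ratio with no pseudocount the median was -0.73, with 10 members past 2-fold lower and 1 higher, beside 3.77% and 2.42% of detected genes, and 5.71% lower among protein-coding genes of a mean count under 100. In the CPM ratio, Hist1h3d (-2.99), Hist1h1d (-2.30), Hist1h2ac (-2.19) and Hist1h1e (-1.79) were the lowest, while Hist1h4c (-0.02) and Hist2h2bb (-0.08) were close to 0. Hist2h2aa2 was at 0.03, but with its identical copy Hist2h2aa1 the pair had 8.71 CPM in library 1 and 6.09 in library 2. That sum leaves out Gm20634, which shares their sequence. Kallisto CPM ratios gave a median of -0.70, with 23 of 24 members lower, beside 51.8% of all genes compared. By kallisto CPM, Hist1h1d was at -0.16.

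**Figure D4:**
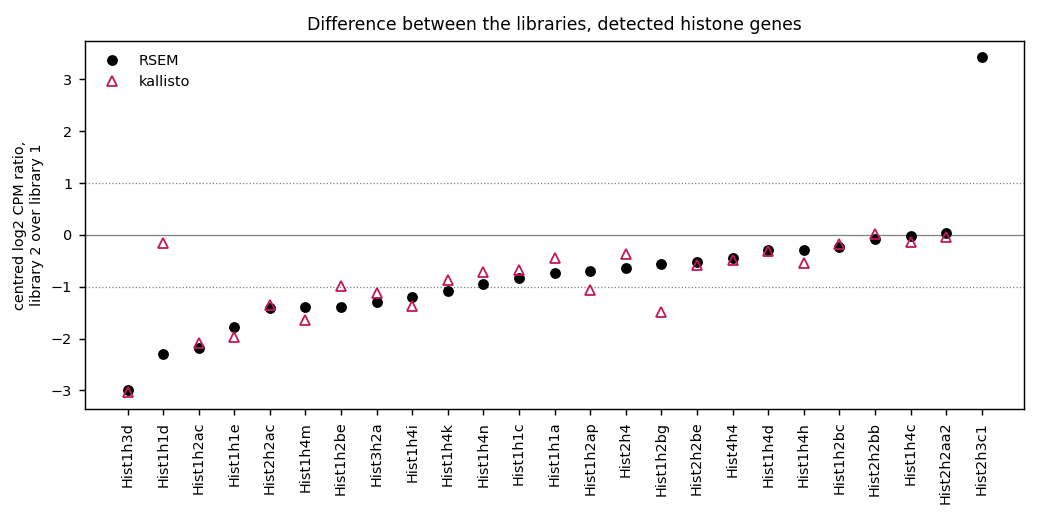
Centred log2 CPM ratio of library 2 over library 1 for the 25 detected members, from RSEM (points) and kallisto (triangles), with dotted lines at 2-fold. The RSEM values run from -2.99 for Hist1h3d to 3.42 for Hist2h3c1, which has no kallisto value because its count in library 1 was 0, and Hist1h1d is where the 2 programs are farthest apart among the lower members.

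Depth, RNA input and the fragment length (205 and 222 nt) also differed between the libraries, and their part in the histone difference was not tested. Without centring, TPM ratios of all protein-coding genes were shifted by a median of -0.27, and kallisto TPM ratios by 0.59, so the lists below are given relative to those medians. Of the S-phase and replication genes, 23 of 24 were detected, 7 lower and 16 higher in library 2, with a median centred log2 ratio of 0.22. On that scale 49.7% of all detected genes were lower. Among detected protein-coding genes of a mean count under 100, 34.7% were lower and the median was 0.13. A gene of slightly lower TPM can count as higher there, as Rrm2 did at 0.48 and 0.43 TPM. By CPM the S-phase list split into 10 lower and 13 higher. The sign of its median depended on the scale: the median was 0.17 by CPM, -0.09 with kallisto TPM and -0.05 without centring. The median of the histone genes was below 0 in all of these, but so was that of low-count genes in some. With kallisto TPM, 80.2% of detected protein-coding genes of a mean count under 100 were lower (median -0.27). The histone genes had 22 of 25 lower there (median -0.47). Without centring, 68.6% of those low-count genes were lower (median -0.14). Pcna, the sliding clamp of DNA polymerase, was at 20.99 TPM in library 1 and 23.7 in library 2, the helicase subunit Mcm3 at 3.80 and 5.63, and the proliferation marker Mki67 at 31.3 and 24.9. Of the genes for histone mRNA processing and histone gene transcription, 15 of 16 were detected, 5 lower and 10 higher, with a median of 0.14. This stands beside the 49.7% and 34.7% lower given above. Without centring the split was 10 lower and 5 higher, with a median of -0.14. In this list Slbp was at 11.0 and 6.49 TPM and Npat at 1.81 and 2.57. Casp8ap2, a partner of NPAT, was at 3.25 and 5.31 TPM. Lsm10, a subunit of the U7 particle that cuts histone mRNA, was at 5.19 and 7.98 TPM.

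Some replication-independent histone variants, which are made throughout the cell cycle, stood far above every member. H3f3b, which encodes the H3 variant used outside S phase, had 368 TPM in library 1 and 234 in library 2, above the summed TPM of all 70 members in each library (257 and 116). H3f3a was at 39.5 and 42.1 TPM, H2afz at 16.7 and 11.7, the macroH2A gene H2afy at 70.5 and 29.9, and H2afj at 12.3 and 3.82. Of 13 variants, 10 were detected, 6 lower and 4 higher in library 2, with a median of -0.17. On the same scale 49.7% of all detected genes were lower.

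The cells carried the RNA of macrophages. All 8 macrophage markers were detected, at mean levels from 59.9 TPM (Itgam) to 1311 TPM (Lyz2), and of 10 markers of other cells 2 were detected, Pf4 at 13.9 and 20.8 TPM and Pecam1 at 1.94 and 1.14. The other 8 had at most 7 counts in either library, with Cd3e and Epcam at 0 in both, and the part of Pf4 and Pecam1 in the histone difference was not tested.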

How the data were processed

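Each library had an RSEM-layout gene table and transcript table and a kallisto-layout transcript table. Per the submitters' processing notes beside the files, these used mm10 and GENCODE M21. The aligner, versions and strand setting were not given in the sources used here. Each expected count, an estimate that need not be whole, and TPM were used as the authors deposited them. The posterior SD of the count and the TPM interval bounds, each a score of precision, and the percent of a gene's TPM in each transcript were also deposited by the authors. Library totals cover genes with Ensembl identifiers only. CPM, ratios and sums were computed here with python 3.11.15, pandas 2.3.3, numpy 2.4.6 and scipy 1.17.1. Only the form of the centred ratio and the stem-loop search were tried on simulated data. The simulated ratio used another pseudocount, count minimum and set of genes for centring than the ratios reported. Sums, shared words and coding comparisons were not simulated. Shared words, stem-loops and coding sequences came from the GENCODE M21 transcripts. No protein sequence is printed. Named genes were the 3 of highest mean TPM in each type, the detected members of Hist2, Hist3 and Hist4, those at 0, those past 2-fold and identical copies; other names were chosen after their values were seen. The members and lists were chosen with earlier results of these data known. Alternatives were the count minimum, pseudocount, centring, scale, program and single libraries. The libraries are labelled biological replicates with 1 donor entry, so their spread may be smaller than that between animals.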

Additional observations from a re-analysis of the deposited data

How the results depend on the processing

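The number of histone genes detected was 25, and it was 47 at a minimum of 1 count, 8 at a minimum of 50, and 26 to 39 with 1 library alone. The summed TPM, 187 as the mean of the libraries, was 69.8 with kallisto TPM, whose scale differs; the cause was not tested. The median log2 ratio of library 2 over library 1 was -0.44. It was -0.61 with a pseudocount of 0.1 TPM, -0.22 at a minimum of 50 counts (8 members), -0.72 with no centring and -0.73 as a CPM ratio. In 2 alternatives chosen after seeing the data, it was -0.77 at a mean of 10 or more counts (35 members) and -0.27 without members that overlap another gene or share over 50% of their 100-base words (13 members, 12 of them lower). The median stayed below 0 in each of these. The count of members past 2-fold lower, 5 as reported, ran from 2 of 8 at a minimum of 50 counts to 13 of 35 at a mean of 10. The share of all genes past 2-fold was not computed at either setting, so these counts have no background. The sign turned for Hist1h2bc, 0.011 with kallisto TPM, and for Hist1h4c, 0.019 with a pseudocount of 0.1. It turned for Hist2h2bb, -0.16 with kallisto TPM and -0.081 as CPM, and for Hist4h4, -0.29 with a pseudocount of 0.1, -0.47 with kallisto TPM and -0.44 as CPM; the cause was not tested. The median gap between RSEM and kallisto counts in library 1 was 0.29 (log2) for single genes and 0.24 for sets of near-identical copies, a grouping chosen after seeing the data. No paired analysis was possible because there is 1 group. Counts under 20, as in most undetected members, leave wide counting intervals.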
